A study of Mus musculus with 14 samples.

Results

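The genes described here encode the machinery that docks, fuses and recycles synaptic vesicles, with the adhesion molecules that hold both sides of a synapse together. They are 39 listed genes of the 16060 present in either of the authors' deposited tables: 11 synaptotagmins, 6 SNARE and complexin genes, 9 genes of the vesicle membrane, synapsins and coat, 8 Rab3 and active zone genes, and 5 neurexins and neuroligins. Membership was set by name, through Entrez identifiers paired with mouse symbols, but the list was chosen with earlier results of these data known. Shares of the list set beside those of all genes are therefore descriptions. Of the 39 genes, 37 were in the table for day 5 (D5) and all 39 in the table for day 10 (D10). Syt17 and Sv2b were listed at D10 alone, and their average log2 CPM there was low, at 0.09 and -0.67 in the authors' deposited table.

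Libraries of polyadenylated RNA were made from mouse embryonic stem cells of the line GLI1-FTA, in the A2Lox.cre background, during neural differentiation in culture. At D5, labelled as neural progenitor cells, 4 libraries came from cells given 500 ng/ml doxycycline for 48 h, from day 3 to day 5, to overexpress GLI1, a DNA-binding effector through which Hedgehog signalling turns genes on. Another 4 came from untreated controls of the same line. At D10, labelled as immature neurons and harvested 5 days after the drug was washed out, there were 3 libraries from pulsed and 3 from untreated cultures. All 14 libraries come from this inducible line. As control cultures had no doxycycline, effects of the drug and of GLI1 cannot be told apart. The labels do not say whether the line is a single clone or whether replicates were separate cultures, and the p-values then measure only the spread between these libraries, which may be technical.

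The sources give each day as 1 comparison of induced with control libraries, with no value per library. Levels per sample, the depth and the overlap of the groups are therefore not analysed here, and the number of libraries that followed each direction is not known. Gli1 (Entrez 14632) stood at a log2 fold change of 4.79 at D5 and 0.57 at D10 in the authors' deposited table, with implied standard errors (SE) of 0.25 and 0.18 (adjusted p = 1.12e-81 and 0.780). The implied SE was derived here from each fold change and its p-value. It is not a replicate SD. Genes with a Benjamini-Hochberg adjusted p under 0.05 over the whole table are called changed.

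At a synapse, an arriving action potential opens calcium channels, and calcium bound by synaptotagmins triggers fusion of vesicles that SNARE proteins have already drawn to the membrane. Complexins bind the assembled SNARE complex, Rab3 GTPases and active zone scaffolds bring vesicles to the release site, and synapsins hold the reserve pool. Many of these genes are switched on as neural progenitors become neurons, and several also serve regulated secretion in endocrine cells.

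The first comparison asks which release genes responded while GLI1 was induced, at D5. Synaptotagmin 4, synaptotagmin 13, complexin 2 and Rab3b were higher in induced cells, and no other listed gene passed. These 4 of 37 measured genes (10.8%) were all on the higher side, beside 4.44% of all 15108 genes called in either direction and 2.34% called higher. Of the 37 genes, 21 had a log2 fold change above 0 and 16 below, and their median was 0.023, against 0.0015 over all genes of the authors' deposited table. At an unadjusted p under 0.05 there were 7 of the 37 genes, and 1611 of the 15108. Values of the release genes thus lay on both sides of 0. The 4 genes come from 3 different functional classes.

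Syt4 (Entrez 20983) had the largest rise of the 37 genes. Syt4 encodes a synaptotagmin of dense-core and other secretory vesicles that lacks a conserved calcium-coordinating residue in its first C2 domain. It was 3.70-fold higher in induced cells by the authors' deposited table (1.89 on the log2 scale, implied SE 0.14, adjusted p = 5.71e-36). Its average log2 CPM was 4.02 in the authors' deposited table. From that average and the fold change, with equal numbers of libraries per group, levels of 6.91 CPM in controls and 25.5 CPM in induced cells are implied. These implied group levels are approximate and carry no spread.

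Syt13 (Entrez 80976) encodes a synaptotagmin whose C2 domains lack the usual calcium-binding residues and which is known from neuroendocrine cells as well as brain. It was 2.41-fold higher by the authors' deposited table (1.27 on the log2 scale, implied SE 0.13, adjusted p = 8.86e-20). The implied levels were 20.5 CPM in controls and 49.4 CPM in induced cells. Cplx2 (Entrez 12890), the complexin that clamps and then supports fusion by binding SNARE complexes, was 1.51-fold higher by the authors' deposited table (0.60 on the log2 scale, implied SE 0.10, adjusted p = 1.02e-06). Its implied levels were 50.7 CPM in controls and 76.7 CPM in induced cells. The size of this rise is under 2-fold.

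Rab3b (Entrez 69908), a vesicle-bound small GTPase, was 2.52-fold higher by the authors' deposited table (1.33 on the log2 scale, implied SE 0.31, adjusted p = 0.00103). It was a gene of few reads, with an average log2 CPM of 0.54 in the authors' deposited table and implied levels of 0.82 CPM in controls and 2.08 CPM in induced cells. With Holm's adjustment of the authors' p-values over all genes it did not pass (adjusted p = 0.288). In the GENCODE M21 annotation, 566 of the 3892 exonic bases of Syt4 are also exonic in Gm26658 on the opposite strand, and 317 of the 3372 of Rab3b in 8030443G20Rik. The labels call the reads stranded, but no source used here says whether counting used the strand, and reads of these partners cannot be set apart.

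**Figure D1:**
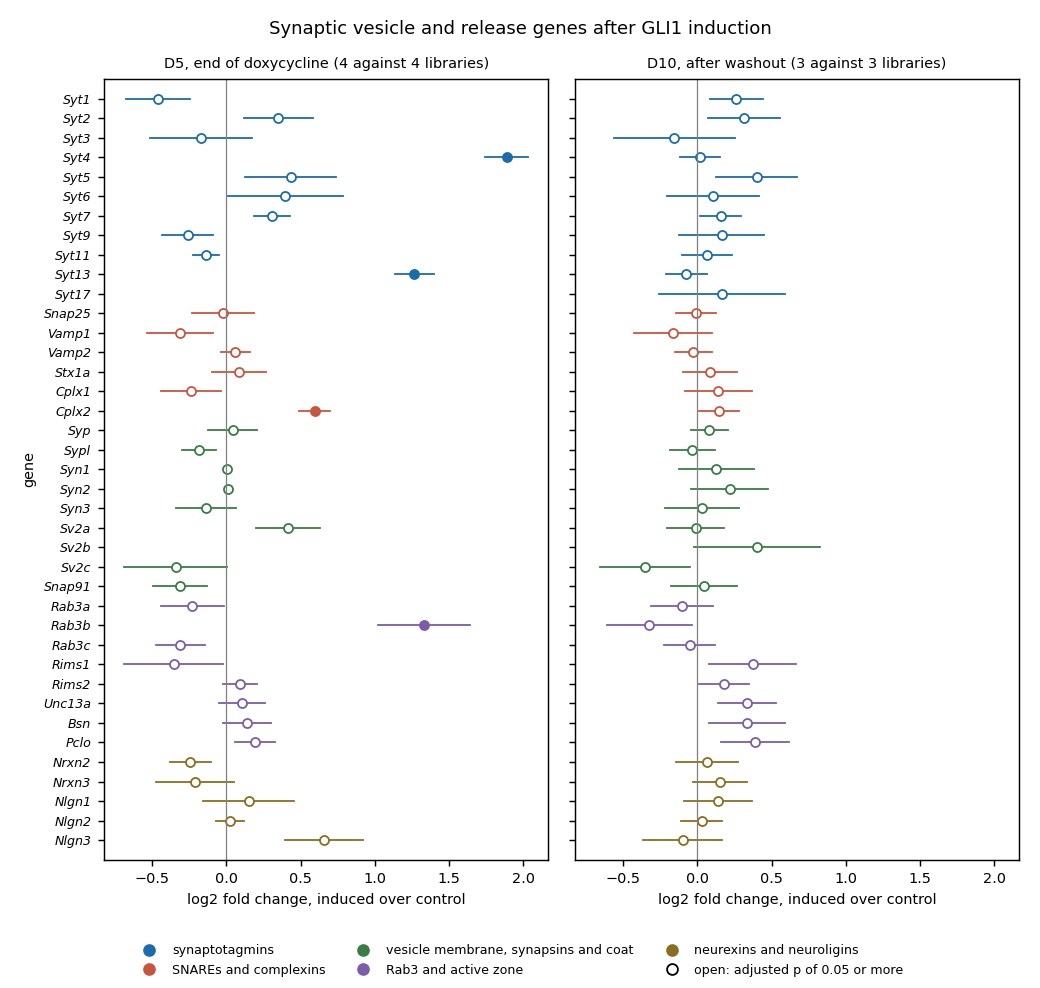
Log2 fold change of induced over control libraries for each listed gene at D5 (left) and D10 (right), from the authors' deposited tables, with bars of 1 implied SE on either side and colours for functional classes. Filled points have an adjusted p under 0.05: Syt4, Syt13, Cplx2 and Rab3b at D5 and 0 genes at D10; Syn1 and Syn2 have no finite SE at D5, and Syt17 and Sv2b no D5 value.

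GLI1 binds DNA, and the sequence just before the start sites of genes that rose can be read from RefSeq. The RefSeq promoter table (GRCm38.p6) held windows for 28 of the 39 genes, 41 windows in all, each from 250 bases before to 50 bases after a start site. Among the 4 genes higher at D5 it held Rab3b and Cplx2. The 250 bases before their start sites are shown because these are the genes that rose in induced cells, in lower case since neither holds the motif searched.

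Rab3b (chr4:108878820-108879069, plus strand): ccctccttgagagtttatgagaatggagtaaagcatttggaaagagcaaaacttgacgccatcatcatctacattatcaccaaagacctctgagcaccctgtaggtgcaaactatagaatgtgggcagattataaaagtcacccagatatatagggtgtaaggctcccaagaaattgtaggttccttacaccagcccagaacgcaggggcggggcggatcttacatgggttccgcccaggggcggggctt

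Cplx2 (chr13:54302306-54302555, plus strand): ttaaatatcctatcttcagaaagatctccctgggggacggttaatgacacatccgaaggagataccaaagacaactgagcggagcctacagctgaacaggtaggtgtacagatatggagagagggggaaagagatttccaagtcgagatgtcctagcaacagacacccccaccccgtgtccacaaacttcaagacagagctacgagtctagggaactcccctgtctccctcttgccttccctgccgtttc

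The GLI consensus GACCACCCA, searched on both strands, was in 0 of the 41 windows, and in 0.253% of all 32851 windows of the same length. With 1 base free (GACCNCCCA, which includes the first motif) it was in 0 of the 41, against 0.977% of all windows. Allowing at most 1 mismatch, it was in 1 of the 41 windows, that of Rims1, against 6.74% of all windows. This says only that these letters are not in these windows. The Rab3b and Cplx2 stretches had a GC content of 48.8% and 50.8%, against a median of 52.4% over the same stretch of all 32851 windows and 60.4% over the 41 listed ones. They held 6 and 7 CpG dinucleotides, against medians of 6 and 13.

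The other synaptotagmins did not pass at D5. Syt1, the calcium sensor of fast synchronous release, stood at -0.46 in the authors' deposited table (implied SE 0.22, unadjusted p = 0.0341, adjusted p = 0.371). Syt7, the slower sensor of asynchronous release, stood at 0.31 in the authors' deposited table (implied SE 0.12, unadjusted p = 0.0129, adjusted p = 0.188). The signs of these values differ, and neither passed. Syt11, the closest relative of Syt4, was at -0.14 in the authors' deposited table with a small implied SE of 0.09. Its sign was opposite to that of Syt4. The remaining values in the authors' deposited table were 0.35 for Syt2, -0.17 for Syt3, 0.43 for Syt5, 0.40 for Syt6 and -0.26 for Syt9.

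No SNARE gene passed at D5. Snap25, the plasma membrane SNARE typical of neurons, was at -0.022 in the authors' deposited table (implied SE 0.21). Vamp2, the main vesicle SNARE, was at 0.06 in the authors' deposited table (implied SE 0.10), and Stx1a at 0.08. Vamp1 was at -0.31 and Cplx1, the other complexin listed, at -0.24 in the authors' deposited table (implied SE 0.20). Cplx1 and Cplx2 thus had opposite signs, and that of Cplx1 did not pass.

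Of the 8 measured genes of the vesicle membrane, synapsins and coat, 0 passed at D5 at the adjusted threshold and 0 had an unadjusted p under 0.05. Syp, the abundant vesicle protein synaptophysin, was at 0.04 in the authors' deposited table, and its more widely expressed relative Sypl at -0.18. The synapsin genes Syn1, Syn2 and Syn3 were at 0.0012, 0.012 and -0.14 in the authors' deposited table. Sv2a, a vesicle glycoprotein, was at 0.41 (implied SE 0.22) and Sv2c at -0.34 (implied SE 0.35) in the authors' deposited table. Snap91, a clathrin adaptor of vesicle retrieval, was at -0.31 in the authors' deposited table (implied SE 0.18).

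Apart from Rab3b, the Rab3 and active zone genes did not pass at D5. Rab3a and Rab3c, the other Rab3 genes listed, were at -0.23 and -0.31 in the authors' deposited table, with implied SEs of 0.21 and 0.17. The scaffold and priming genes were at -0.35 for Rims1, 0.09 for Rims2, 0.11 for Unc13a, 0.14 for Bsn and 0.19 for Pclo in the authors' deposited table. Among adhesion genes, Nlgn3 had the largest value, 0.66 in the authors' deposited table (implied SE 0.26, unadjusted p = 0.0121, adjusted p = 0.180). In the GENCODE M21 annotation, 3823 of the 8567 exonic bases of Nlgn3 are also exonic in Gm21986 on the same strand. Reads of that partner cannot be set apart. The other adhesion genes were at -0.24 for Nrxn2, -0.21 for Nrxn3, 0.15 for Nlgn1 and 0.023 for Nlgn2 in the authors' deposited table.

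Of 16 measured neuron markers, a list that holds none of the release genes, 8 were lower at D5, 0 were higher and 8 did not pass, beside 2.1% of all genes called lower. Their log2 fold changes were below 0 for 11 and above 0 for 5, with a median of -0.34 in the authors' deposited table. Fewer of them passed with Holm's adjustment of the authors' p-values, 3 of the 16. Their summed implied level was 1302 CPM in controls and 980.1 CPM in induced cells. For all 37 measured release genes the summed implied level was 546.9 CPM in controls and 611.7 CPM in induced cells. Without the 4 that passed it was 467.9 and 458.1 CPM over 33 genes, a set picked by its own test results. The 8 lower markers were Nefm at -1.61, Nefl at -1.11, Celf4, Gap43, Mapt, Ina, Tubb3 and Stmn2 in the authors' deposited table. Of the 8 that did not pass, Map2 was at -0.28, Stmn3 at -0.15 and Dcx at -0.0026. Elavl2, Elavl3, Elavl4, Celf3 and Rbfox3 were at 0.05, 0.05, 0.11, 0.21 and 0.53 in the authors' deposited table. For the lower markers in these bulk libraries, fewer neurons and less RNA per neuron cannot be told apart. Neuroendocrine markers had 1 of 12 measured genes higher and 0 lower, with summed implied levels of 185.9 and 185.1 CPM. The higher gene was Neurog3, at 1.52 in the authors' deposited table (adjusted p = 1.64e-06). It had few reads, with an average log2 CPM of 0.89, and so adds little to that sum. The list of endoderm markers had calls on both sides, with 2 of 10 higher, Foxa1 and Foxa2, and 3 lower, Gata4, Gata6 and Dab2 (981.8 and 732.8 CPM). Which cells gave the Foxa1 and Foxa2 reads is not known from bulk libraries, so their rise is not read as endoderm. Epithelial markers had 0 of 8 higher and 3 lower (343.2 and 263.9 CPM), and neural progenitor markers 1 of 10 higher and 0 lower (2064 and 2096 CPM). Pluripotency markers had 0 of 7 higher and 2 lower (149.6 and 106.9 CPM), glial markers 0 of 6 higher and 1 lower (128.8 and 84.8 CPM), and muscle and heart markers 0 of 3 in either direction (17.1 and 14.8 CPM). The lower glial marker was Pdgfra, at -0.81 in the authors' deposited table. Its average log2 CPM of 6.35 was the highest of that list, so the glial sum mostly follows this 1 gene and is no measure of glia. No marker was listed at 0, and the range over libraries is not known. Gfap, S100b, Olig1 and Sox10 of the glial list were not in the D5 table. The part of these cell types in the rises of Syt4, Syt13, Cplx2 and Rab3b was not tested.

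The wider release pathway had calls on both sides of 0 at D5. Of 46 measured genes of other release machinery, 1 was higher, 1 lower and 44 did not pass, a share of 4.35% called beside the 4.44% over all genes. Doc2b, a calcium-binding protein with C2 domains that acts in vesicle fusion, was at 0.85 (implied SE 0.25, adjusted p = 0.0185) and Cadps, a priming factor of dense-core vesicles, at -0.41 (implied SE 0.13, adjusted p = 0.0338) in the authors' deposited table. Neither call passed with Holm's adjustment of the authors' p-values (adjusted p = 1 for both) or at an adjusted p under 0.01. That for Doc2b also ended when z from the authors' p-values was rescaled within bins of expression (adjusted p = 0.0829).

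Of 29 measured genes of vesicle recycling and filling, 2 were higher and 1 lower, or 10.3% called. Slc18a2, the vesicular monoamine transporter, was 3.42-fold higher by the authors' deposited table (1.77 on the log2 scale, implied SE 0.17, adjusted p = 3.98e-24). Itsn1, an endocytic scaffold, was at 0.44 in the authors' deposited table (implied SE 0.10, adjusted p = 0.000260), and with Holm's adjustment it did not pass (adjusted p = 0.0626). Slc32a1, the vesicular transporter of GABA and glycine, was 5.64-fold lower by the authors' deposited table (-2.50 on the log2 scale, implied SE 0.62, adjusted p = 0.00246). That gene had very few reads, with an average log2 CPM of -1.41 in the authors' deposited table, and it did not pass with Holm's adjustment (adjusted p = 0.815). With rescaled z, Atp6v0a1, a subunit of the proton pump that acidifies vesicles, at -0.34, and Ap2a2, a subunit of the clathrin adaptor AP-2, at -0.20 in the authors' deposited table, also passed (adjusted p = 0.0333 and 0.0465). Both are named after their values were seen. Of 20 measured postsynaptic scaffold genes, 1 was higher and 0 lower, or 5% called. It was Lrrtm2, a postsynaptic partner of neurexins, at 1.85 in the authors' deposited table (implied SE 0.28, adjusted p = 4.99e-09). Lrrtm2 had few reads, with an average log2 CPM of 1.06 in the authors' deposited table and an implied control level of 0.90 CPM. The medians of these 3 lists in the authors' deposited table were -0.027, -0.038 and 0.06, against 0.0015 over all genes.

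**Figure D2:**
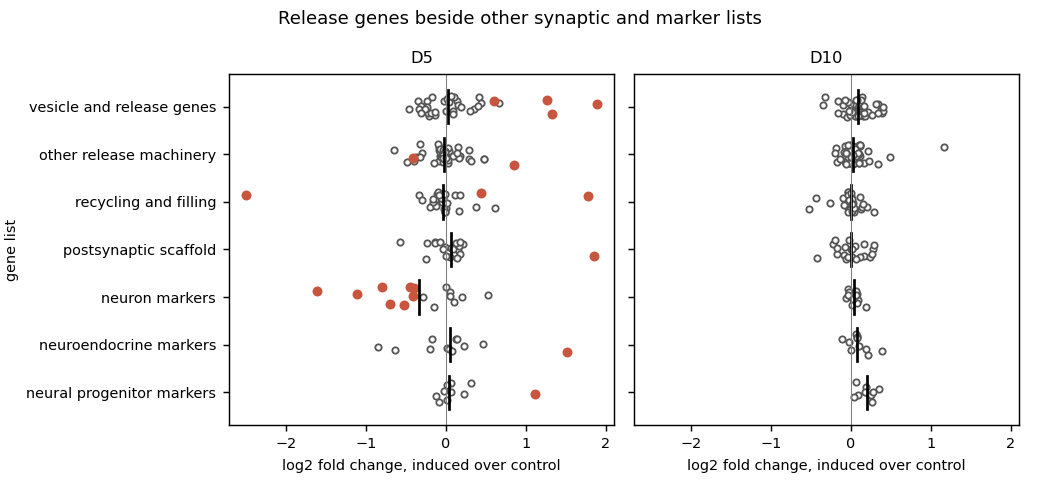
Log2 fold change of induced over control libraries at D5 (left) and D10 (right) from the authors' deposited tables, 1 point per gene and 1 row per gene list, with black bars at the list medians and filled points for an adjusted p under 0.05. At D5 the release genes have 4 filled points, all above 0, while the neuron markers have 8, all below 0; at D10 there are 0 filled points in these lists.

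The second comparison asks what remained at D10, 5 days after washout. No release gene passed the test between pulsed and control cultures. In the authors' deposited table for D10, 0 of the 39 genes passed, beside 0.0826% of all 15744 genes called in either direction (13 genes), so that few calls were made anywhere. No source used here names the tool behind the authors' p-values. At an unadjusted p under 0.05 there were also 0 of the 39 genes, while 241 of the 15744 genes passed that mark. That share is under the 0.05 which this mark would give with no change in any gene. The D10 p-values thus ran high over the table, and the lack of calls does not show that no gene differed. The log2 fold changes of the 39 genes ran from -0.35 to 0.40 in the authors' deposited table, with 27 above 0, 12 below and a median of 0.09, against 0.0027 over all genes. Of all 15744 genes, 8041 were above 0. Implied SEs of the 39 genes ran from 0.12 to 0.43, and that of Cplx2, whose rise at D5 was the smallest called, was 0.13. As they derive from these p-values, the D10 SEs may be too large. With z rescaled within bins of expression, the D10 SE of Cplx2 was 0.072, and still 0 of the 39 genes passed.

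Syt4 was at 0.018 (implied SE 0.14), Syt13 at -0.08 (0.14), Cplx2 at 0.15 (0.13) and Rab3b at -0.32 (0.29) in the authors' deposited table for D10. None of these 4 passed, and the signs were mixed. The active zone genes Pclo at 0.39 (implied SE 0.23), Rims1 at 0.37 (0.29), Unc13a at 0.34 (0.19), Bsn at 0.34 (0.26) and Rims2 at 0.18 (0.17) were all above 0 in the authors' deposited table. They were picked out after their values were seen. The smallest unadjusted p of any release gene was 0.0839, that of Unc13a, which encodes a factor that primes vesicles for fusion. Pclo followed at 0.0860. These active zone values are thus no calls.

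Among the other synaptotagmins at D10, the authors' deposited table gave 0.26 for Syt1 (implied SE 0.18), 0.31 for Syt2, -0.15 for Syt3, 0.40 for Syt5, 0.11 for Syt6, 0.16 for Syt7, 0.16 for Syt9, 0.07 for Syt11 and 0.17 for Syt17. Syt1, the fast sensor, was below 0 at D5 and above 0 at D10, and neither value passed. The SNAREs Snap25, Vamp1, Vamp2 and Stx1a had values of -0.0092, -0.16, -0.026 and 0.09 by the authors' deposited table, with Cplx1 at 0.14. Values for the vesicle membrane genes in the authors' deposited table were 0.08 for Syp, -0.035 for Sypl, 0.13 for Syn1, 0.22 for Syn2, 0.03 for Syn3, -0.0097 for Sv2a, 0.40 for Sv2b, -0.35 for Sv2c and 0.05 for Snap91. Rab3a was at -0.10 and Rab3c at -0.05 in the authors' deposited table. Adhesion genes were at 0.07 for Nrxn2, 0.15 for Nrxn3, 0.14 for Nlgn1, 0.029 for Nlgn2 and -0.10 for Nlgn3 in the authors' deposited table.

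The other pathway lists had 0 calls at D10 among 52, 31 and 22 measured genes. At an unadjusted p under 0.05 there were 1, 1 and 0 genes, namely Unc13c, a relative of Unc13a, at 1.16 (p = 0.00342) and Slc17a6, a vesicular glutamate transporter, at -0.43 (p = 0.0180) in the authors' deposited table. Neither of these genes was in the D5 table, and both are named after their values were seen. With z from the authors' p-values rescaled, Slc17a6 passed at D10 (adjusted p = 0.0140) and Unc13c did not. Of the 16 neuron markers 0 passed at D10, and by the authors' deposited table their median was 0.04, with summed implied levels of 2889 CPM in controls and 2952 CPM in pulsed cultures. The other marker lists also had 0 calls. Neural progenitor markers were above 0 in 10 of 10 cases (median 0.20, 1384 and 1526 CPM). So were neuroendocrine markers in 9 of 11 and pluripotency markers in 5 of 6. Endoderm markers were below 0 in 9 of 11 (median -0.10, 1216 and 1139 CPM) and epithelial markers in 7 of 8. Above 0 were 3 of 7 glial and 4 of 5 muscle and heart markers. The part of these cell types in the D10 values was not tested.

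The third comparison asks whether the response of a gene differed between the days. It did for Syt4, Syt13 and Rab3b, 3 of the 37 genes in both tables (the smallest p first), beside 1.24% of all 14792 genes in both tables. For Syt4 the log2 fold change at D10 minus that at D5, computed here from the authors' values, was -1.87 (SE 0.20, adjusted p = 5.70e-18). By the same test on the authors' values it was -1.34 for Syt13 (SE 0.19, adjusted p = 6.83e-10) and -1.66 for Rab3b (SE 0.42, adjusted p = 0.0102). In all 3 the value was closer to 0 at D10. The days come from different libraries and share no controls. The test rests on the implied SEs, of which those at D10 may be too large, and a normal reference, so it is approximate.

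For Cplx2 the difference in the authors' fold changes was -0.45 (SE 0.17) and did not pass (adjusted p = 0.335), although Cplx2 passed at D5 and not at D10. Of the alternatives run, rescaling z from the authors' p-values within bins of expression made this difference pass (adjusted p = 0.00991). Syt1, whose sign in the authors' tables differed between the days, had a difference of 0.72 (SE 0.28, adjusted p = 0.403). Outside the listed genes, the differences between the authors' fold changes of Slc18a2 at -1.63 (adjusted p = 5.06e-09), Lrrtm2 at -1.61 (adjusted p = 0.00428) and Slc32a1 at 2.51 (adjusted p = 0.0189) passed. Those between the authors' fold changes of Doc2b (adjusted p = 0.727), Cadps (0.910) and Itsn1 (0.974) did not. With rescaled z, that between the authors' fold changes of Itsn1 passed (adjusted p = 0.00779).

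The implied group levels set each response beside the change of the cultures from D5 to D10. Syt4 was implied at 6.91 CPM in D5 controls, 25.5 CPM in D5 induced cells, 53.4 CPM in D10 controls and 54.1 CPM in D10 pulsed cultures. The induced D5 level thus lay between the control levels of the days. Syt13 was implied at 20.5 CPM in D5 controls and 25.5 CPM in D10 controls, so its induced D5 level of 49.4 CPM lay above both. The same held for Cplx2, with controls at 50.7 and 40.4 CPM and induced D5 cells at 76.7 CPM. Rab3b controls were implied at 0.82 and 2.64 CPM, with 2.08 CPM in induced D5 cells, between them. The difference between days in these levels has no test, as no spread is known.

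**Figure D3:**
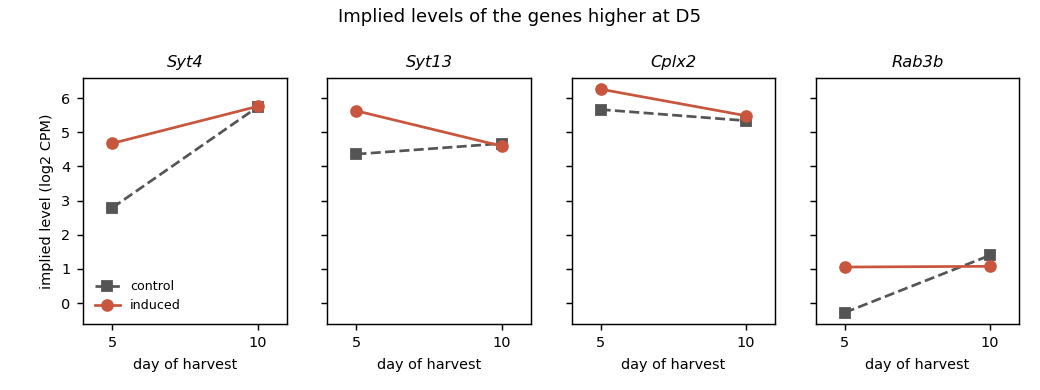
Implied level (log2 CPM, from the average log2 CPM and the log2 fold change of the authors' deposited tables) of the 4 genes higher at D5, against day of harvest, with grey squares and dashed lines for control and red circles and full lines for induced cultures; no error bars can be drawn. Syt4 shows the widest gap at D5, and the lines of Syt4 and Syt13 meet at D10.

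Most release genes had a higher average level at D10 than at D5. Averaged over all libraries of a day, 30 of the 37 genes in both tables had a higher average log2 CPM at D10 and 7 a lower one, by the authors' deposited table. For 17 of them (45.9%) the difference was over 1 log2 unit upward, against 1803 of 14792 genes (12.2%). The median change was 0.93 log2 units, against 0.0053 over all genes. This is a description, since the level of each library is not known. The implied control levels gave 31 higher and 6 lower, with a median of 0.86.

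The largest upward differences between days were those of Nrxn3, a presynaptic adhesion molecule, from 0.78 to 3.93 log2 CPM, and Rab3c, from 3.59 to 6.50, in the authors' deposited table. Rab3a, the main Rab3 of brain synapses, went from 2.36 to 4.86, Sv2a from 2.56 to 4.69 and Syt6 from -0.49 to 1.54 in the authors' deposited table. All 5 neurexin and neuroligin genes and all 8 vesicle membrane, synapsin and coat genes in both tables were higher at D10. Snap25 went from 3.60 to 5.03, Syp from 3.81 to 5.12 and Syt1 from 2.38 to 4.32 log2 CPM in the authors' deposited table.

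Syt9, a fast calcium sensor related to Syt1, went the other way, from 2.84 to 0.68 log2 CPM in the authors' deposited table. It was the only one of the 37 genes whose average was lower by over 1 log2 unit. Cplx2 went from 5.99 to 5.41 and Syt13 from 5.13 to 4.63 in the authors' deposited table. The D5 averages of this pair hold the induced libraries. In the implied control levels the change to D10 was -0.33 log2 units for Cplx2 and 0.31 for Syt13, which was then higher at D10. Vamp1, Pclo, Rims2 and Rims1 were the other 4 lower genes, by 0.38 or less in the authors' deposited table.

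**Figure D4:**
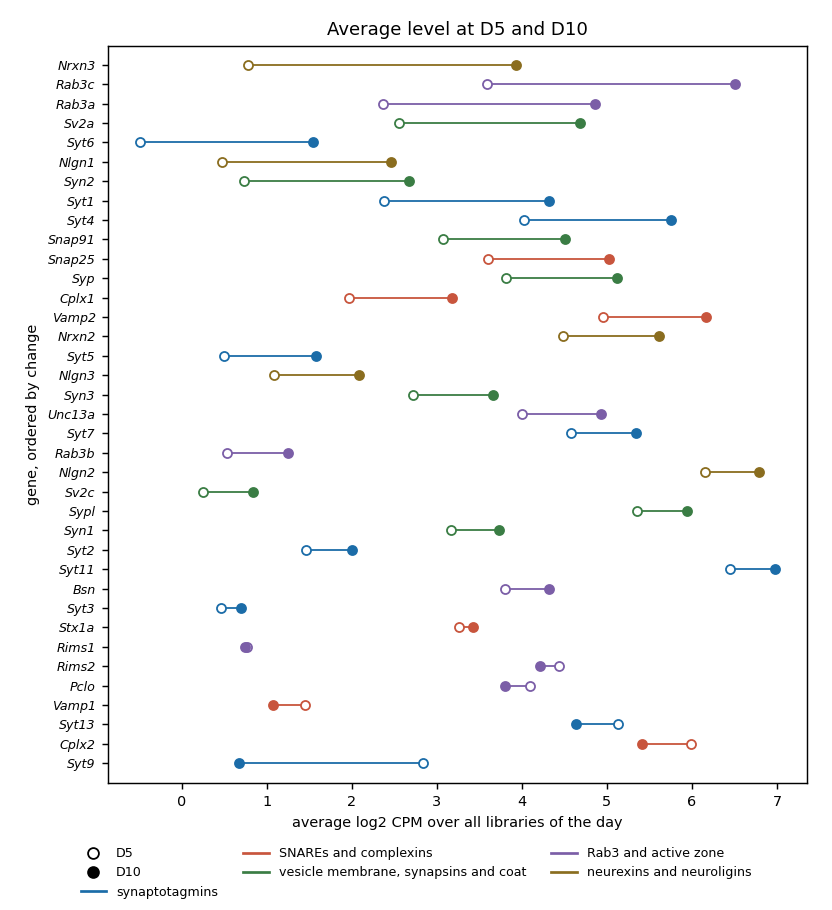
Average log2 CPM over all libraries of a day (induced and control together, from the authors' deposited tables) at D5 (open) and D10 (filled) for the 37 genes in both tables, ordered by change and coloured by functional class. The filled point lies to the right for 30 genes; Nrxn3 has the longest line to the right and Syt9 the longest to the left.

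Levels can be set between genes only per length. Per kb of exon (GENCODE M21, all basic transcripts merged), Syt11 at 4.08, Cplx2 at 3.69, Nlgn2 at 3.63, Vamp2 at 3.45 and Syt13 at 3.22 log2 CPM per kb stood highest at D5. At D10 the order was Vamp2 at 4.66, Syt11 at 4.61, Nlgn2 at 4.27, Rab3a at 4.02 and Snap25 at 3.87. Cplx2 and Syt13 thus ranked 2 and 5 at D5, by averages that hold the induced libraries. In the implied control levels at D5, Cplx2 ranked 4 at 3.36 log2 CPM per kb and Syt13 ranked 7 at 2.45, with Sypl at 3.09 in rank 5. At D10 Cplx2 and Syt13 ranked 10 and 11 by either measure. Rab3a went from rank 12 to rank 4. Which neighbours in these orders differ beyond their spread cannot be given without values per library.

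Marker lists of cell types went in both directions between the days. By the authors' deposited table all 16 neuron markers had a higher average log2 CPM at D10, with a median change of 1.51, and all 8 epithelial markers, with a median change of 2.44. Endoderm markers were higher in 9 of 10 cases (median 1.17) and neuroendocrine markers in 9 of 11 (median 0.88) in the authors' deposited table, while neural progenitor markers were lower in 7 of 10 (median -1.01). Pluripotency markers were lower in 5 of 6 (median -1.23), glial markers higher in 4 of 6 (median 0.46) and muscle and heart markers higher in 3 of 3 (median 3.08) in the authors' deposited table. The part of each cell type in the levels of the release genes was not tested.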

How the data were processed

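RNA-seq libraries (14) were grouped by their titles into induced and control samples at D5 (4 and 4) and D10 (3 and 3). The authors deposited 1 table per day holding for each Entrez gene, per the file headers, the log fold change and average log CPM beside a p-value and FDR. No source used here names the aligner, counting, test, filter or genome build, so these are not given. Depth per library is unknown. The deposited average log2 CPM has base 2, as its powers of 2 sum to 1001540 (D5) and 1001340 (D10). The same base was assumed for the log2 fold change. Smaller tables of selected genes were deposited as well and were not needed.

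Symbols came from a RefSeq gene table (GRCm38.p6), which matched 94.6% of identifiers on either day. The deposited p-values were adjusted again by Benjamini-Hochberg over each whole table, and the result differed from the deposited FDR by at most 2.72e-06 at D5 and 3.41e-05 at D10. The implied SE is the size of the log2 fold change over that of the normal z of its p-value. Implied group levels assume that the average CPM is the mean of both groups. The difference between days was divided by the root of the summed squared SEs (two-sided, adjusted over 14792 genes), with genes of no finite SE (227 at D5, 288 at D10) entered as no difference. Scripts used Python 3.11.15, numpy 2.4.6, pandas 2.3.3, scipy 1.17.1 and matplotlib 3.10.9, and were tested on simulated data.

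The release genes and all lists were chosen with earlier results of these data known. Every listed gene is reported. Named from each other pathway list were up to 4 called genes a day with the smallest p. Genes of these lists outside this rule were chosen after their values were seen, as stated beside them. Alternatives were adjusted p thresholds of 0.01 and 0.1, Holm's adjustment, a minimum of 2-fold, a minimum average log2 CPM of 1, z rescaled in bins of about 500 genes of like average log2 CPM to the median size of a standard normal, and centring on the median of all genes.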

Additional observations from a re-analysis of the deposited data

Results flagged for a closer look

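A difference of the response between D5 and D10, by the test of the difference itself, was found for 7 of the genes named, Gli1 included. Gli1 is the gene that was induced and then released by washout, so its difference is a check of the labels. Whether its D5 reads hold the induced copy is not known. The log2 fold change at D10 minus that at D5 was -4.22 for Gli1, -1.87 for Syt4, -1.34 for Syt13, -1.63 for Slc18a2, -1.61 for Lrrtm2, -1.66 for Rab3b and 2.51 for Slc32a1. Slc32a1, the GABA and glycine transporter of vesicles, is the gene among these that was lower in induced cells at D5. In all 7 the value at D10 was closer to 0. Slc32a1 and Rab3b had an average log2 CPM under 1 at D5 in the authors' deposited table (-1.41 and 0.54), so both rest on few reads. Lrrtm2 was little higher, at 1.06, with an implied D5 control level of 0.90 CPM, and also rests on few reads. The part of depth and of cell types in these differences was not tested.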

How the results depend on the processing

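The count of 4 release genes higher at D5 stayed between 3 and 4 under 6 alternatives, and that of 0 at D10 stayed at 0 under the same 6, including rescaled z, under which 119 of all genes were called at D10. Rab3b left the D5 count with Holm's adjustment and is not tested where a minimum average log2 CPM of 1 is set, and Cplx2 left it with a 2-fold minimum. The 3 genes that differed between days became 2 at an adjusted p under 0.01 or with a minimum average log2 CPM of 1 on both days, both times without Rab3b, and 4 with rescaled z, which added Cplx2. Medians and counts above 0 kept their direction, and implied control levels, an alternative chosen after seeing the data, gave a median change between days of 0.86 in place of 0.93. The D5 calls of other release machinery (2) became 0 at an adjusted p under 0.01, with a 2-fold minimum or with Holm's adjustment, and 1 with rescaled z. Those of vesicle recycling and filling (3) became 1 with Holm's adjustment and 5 with rescaled z, which also gave 1 in place of 0 at D10 (Slc17a6). The 8 lower neuron markers became 4 at an adjusted p under 0.01, 2 with a 2-fold minimum and 3 with Holm's adjustment. These list counts under alternatives were added after seeing the data. For the 11 genes called at D5 and named, Gli1 included, the alternatives ended 12 calls at D5, counted once for each gene and alternative, and for their differences between days they ended 2 calls and added 2 (Cplx2 and Itsn1), with 0 changes of direction. No paired analysis was possible because the deposited tables carry no values per library, and for the same reason no replicate could be left out. Without values per library the effect of depth on these calls is not known.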
